A study of Mus musculus with 12 samples.

Results

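The protocadherin alpha genes with a listed H3K9me3 region were examined in neural progenitors that lack Setdb1 (KO) and in wild-type (WT) progenitors. The members were the 10 genes Pcdha1, Pcdha2, Pcdha3, Pcdha4, Pcdha5, Pcdha6, Pcdha7, Pcdha9, Pcdha11 and Pcdha12. They were chosen by symbol and position on chromosome 18, and they hold 23 of the 50654 regions in the authors' deposited H3K9me3 table. H3K27ac was read from the peak lists of 6 other libraries over the same interval.

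The cells were neurosphere cultures of neural progenitors from the ganglionic eminence of C57BL/6 mouse embryos at E15.5. The KO genotype is labelled Nestin-KO, after a gene of neural progenitors, the series title names the histone methyltransferase SETDB1, and how the deletion was driven is not stated further in the sources used here. The WT group is labelled WT only. Each mark had 3 KO and 3 WT animals, and each library was made from 100000 nuclei. For H3K9me3 the 3 KO animals were male, while 2 WT animals were female and 1 was male. Sex therefore differs between the genotypes for that mark, and its part in the results was not tested. For H3K9me3 the first number in the animals' titles is shared by 1 KO and 1 WT animal, by the other 2 KO animals and by the other 2 WT animals. What this number marks is not stated, and no value within it could be had, since the deposited H3K9me3 values are not tied to animals. For H3K27ac each genotype has 1 animal under 1 such number and 2 under another, the same numbers in both.

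The clustered protocadherins are cell-surface adhesion proteins whose combinations give single neurons a recognisable identity. In the alpha cluster each variable exon has its own promoter and is spliced to a shared set of constant exons, so every member encodes a different extracellular part on the same intracellular tail. In neurons usually few variable promoters are active in a given cell, and the choice involves the DNA-binding protein CTCF, cohesin and DNA methylation. H3K9me3 is a mark of silenced chromatin that SETDB1 places, and SETDB1 is known in mouse neurons to act on the clustered protocadherin locus.

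The members share their downstream end, so their annotated spans are nested. Pcdha1 runs in mm10 from 36930285 to 37187657 on the plus strand of chromosome 18, and Pcdha12 starts at 37020230 and ends at the same base. Each of the 23 regions overlapped the RefSeq spans of between 1 and 12 of the numbered alpha genes, with a median of 11. A symbol in the table therefore says which start site a region was assigned to, and not that the region belongs to that gene alone. Of the 14 alpha genes in the GRCm38 reference, 10 had a listed region within 3 kb downstream of their start, and these were the 10 members. Pcdha8, Pcdha10 and the C-type genes Pcdhac1 and Pcdhac2 had 0 listed regions there. The table holds regions that the authors selected, so a gene with none need not lack H3K9me3.

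Most of the regions were listed under either Pcdha12 or Pcdha7. Pcdha12, the last numbered gene, had 11 and Pcdha7 had 4, and the other 8 members had 1 each. The 23 regions covered 45.2 kb, or 31.5%, of the 143.7 kb between 36930701 and 37074400, and were 1000 to 4500 bp long. They were separated by gaps of 500 to 10500 bp with a median of 3950 bp. By the authors' classes 11 lay within 3 kb of a start site and 12 lay in gene bodies. Of the 11, 10 began 243 to 1261 bp after the start of their gene and the remaining one lay upstream of Pcdha12. Exon boundaries were not used here.

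H3K9me3 was listed as lower in KO progenitors at every member. The authors' deposited table gives all 23 regions an adjusted p of 0.05 or less and a log2 fold change (KO over WT) between -1.68 and -0.84, with a median of -1.38. Of all 50654 regions listed by the authors, 36027 (71.1%) were called lower and 14615 higher at that threshold. Nearly every listed region therefore passes it, and passing is not particular to the members. The median log2 fold change over all listed regions was -0.94. The KO values averaged 31.3% to 55.7% of the WT values, region by region. In a bulk culture, a loss in some of the cells and a smaller loss in every cell cannot be told apart. The authors' enrichment, whose denominator is not stated, was 0.56 to 1.55 in KO and 1.12 to 4.07 in WT. Because the table holds regions chosen for a difference between these same libraries, a fold change in it is partly fixed by that choice.

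The spread between animals was taken into account with limma on log2(normalised reads + 1) over all listed regions, with Benjamini-Hochberg adjustment. By that test 10 of the 23 member regions were lower in KO and 0 were higher, against 14.9% of all listed regions lower. The 10 had limma adjusted p-values of 0.0471 to 0.0490 and belonged to Pcdha2, Pcdha3, Pcdha4, Pcdha7, Pcdha9, Pcdha11 and Pcdha12. The limma log2 fold changes of all 23 had a median of -1.38, against -1.04 over all listed regions. At an unadjusted p of 0.05 the limma count was 20 of 23, against 60% of all regions. The count of 10 moves with single libraries, as it does over the whole table. It was 22 without the third listed KO value, where 61.1% of all regions were lower. Without any 1 of the other 5 values limma called 0 member regions and 0 of all regions lower. In those 5 fits 13 to 22 member regions had an unadjusted limma p of 0.05 or less, against 32% to 50.5% of all regions.

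With limma-voom on the whole reads recovered from the values, 22 of the 23 were lower in KO, against 58% of all listed regions. All 3 KO values lay below all 3 WT values at 22 of the 23 regions, against 54.2% of all listed regions. Scaling the libraries to their median ratio over the listed regions moved limma's log2 fold changes by a median of 0.81. Relative to that shift the 23 member regions remained below 0, and in all 31024 of the 50654 listed regions lay below 0. The members ran from -2.36 to -0.03 with a median of -0.56. Under this scaling limma called 0 of the members and 14045 of the 50654 listed regions higher in KO. It called 2 of the members lower, against 5.97% of all regions. The 2 were the regions of Pcdha11 (adjusted p = 0.0438) and of Pcdha12 from 37038101 to 37041300 (adjusted p = 0.0354).

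**Figure D1:**
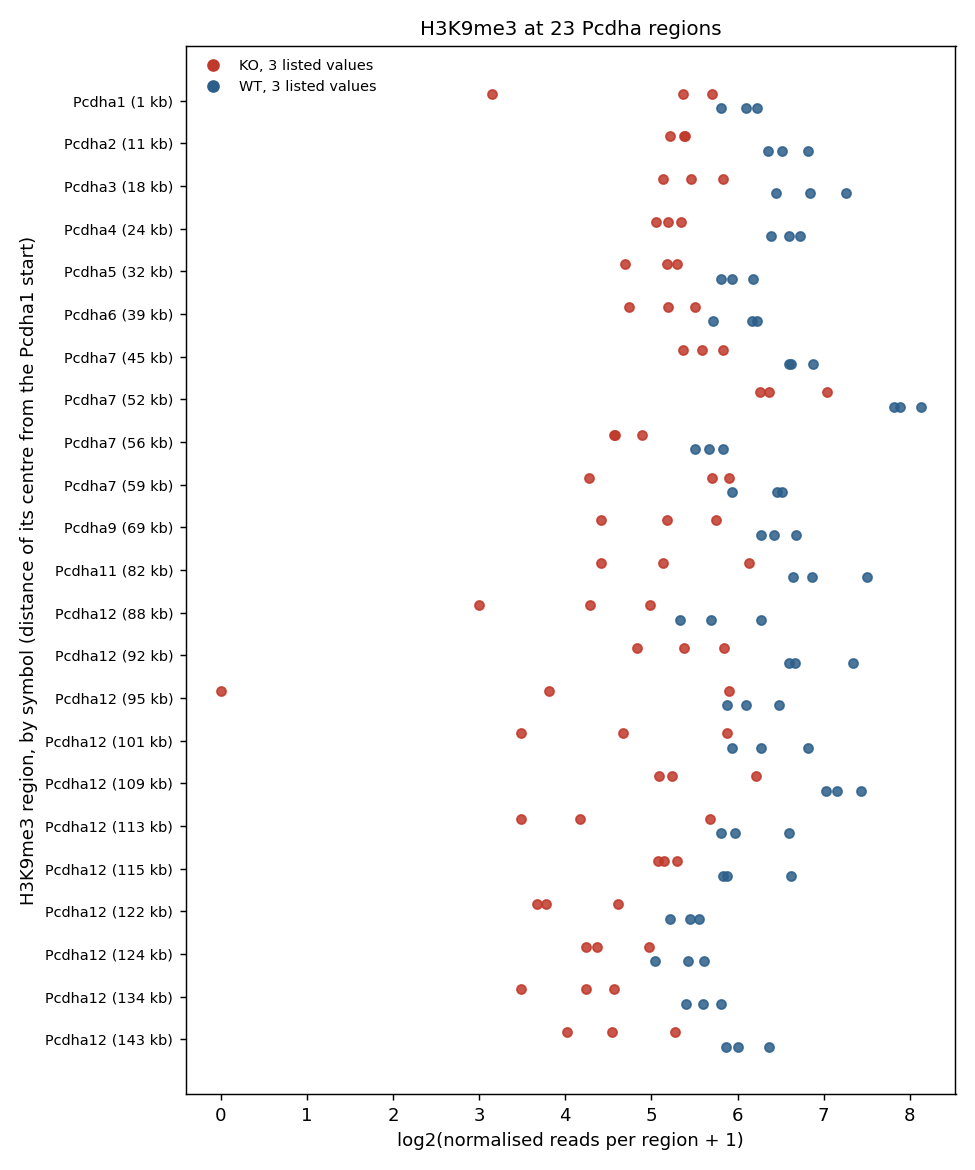
H3K9me3 at the 23 member regions, in order along the chromosome. Each point is 1 listed value, on a scale of log2(normalised reads per region + 1), with KO in red above WT in blue. The KO points lie left of the WT points at every region but the Pcdha12 region at 95 kb, where 1 KO value of 58.83 exceeds the lowest WT value there.

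Pcdha1 to Pcdha4 encode the variable parts nearest the upstream end of the cluster. The table does not say which animal each value belongs to, so the values are called by their position, which had 1 constant scaling step throughout and so stands for 1 library. At Pcdha1 (36930701 to 36932100) the KO values were 50.95, 7.85 and 40.34 normalised reads, against 54.95, 73.82 and 67.42 in WT. The groups did not overlap, but the highest KO value came close to the lowest WT value, and the limma adjusted p was 0.0931. At Pcdha2 (36939801 to 36942100) the KO values were 40.76, 40.98 and 36.14, against 90.41, 111.54 and 80.47 in WT. All 3 KO libraries were close together there, and the limma log2 fold change was -1.23 ± 0.28 (SE, adjusted p = 0.0471).

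Pcdha3 and Pcdha4 also had groups that did not overlap. At Pcdha3 (36947201 to 36949700) the KO values were 56.04, 34.01 and 42.86, against 113.45, 152.55 and 86.27 in WT, a limma log2 fold change of -1.38 ± 0.33 (SE, adjusted p = 0.0471). At Pcdha4 (36953401 to 36955600) the KO values were 35.66, 32.26 and 39.50, against 95.73, 104.98 and 82.65 in WT. That region fell in KO by limma as well (adjusted p = 0.0471).

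Pcdha5 and Pcdha6 did not pass limma. At Pcdha5 (36961701 to 36963200) the KO values were 38.21, 24.85 and 35.30, against 60.27, 71.36 and 55.10 in WT, a limma log2 fold change of -0.92 ± 0.32 (SE, adjusted p = 0.0596). At Pcdha6 (36968501 to 36970100) the KO values were 35.66, 25.72 and 44.54, against 51.41, 73.82 and 71.05 in WT. The groups did not overlap at either gene, and the limma adjusted p was 0.0665 for Pcdha6. On limma-voom both passed, with adjusted p-values of 0.00563 and 0.00882.

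Pcdha7 carried the widest of the member regions. Its first region (36974301 to 36976600) lay just after the start site, with 56.04, 40.11 and 47.07 normalised reads in KO, against 97.50, 116.47 and 95.70 in WT (limma adjusted p = 0.0471). The next region, from 36979601 to 36984100, lies between the starts of Pcdha7 and Pcdha8. It had 81.52, 75.86 and 130.27 normalised reads in KO, against 235.77, 278.04 and 224.75 in WT. Every WT value there was above every KO value by a wide margin, and limma gave a log2 fold change of -1.39 ± 0.28 (SE, adjusted p = 0.0471). The 2 further regions of Pcdha7, up to 36990000, had means of 24.8 and 42.7 in KO, against 50.04 and 79.2 in WT, and did not pass limma (adjusted p = 0.0566 and 0.0857).

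Between Pcdha7 and Pcdha12 lie the listed regions of Pcdha9 and Pcdha11, and both were lower in KO by limma. At Pcdha9 (36998401 to 37000600) the KO values were 20.38, 35.31 and 52.95, against 85.09, 101.70 and 76.12 in WT (limma adjusted p = 0.0490). At Pcdha11 (37011101 to 37014000) the KO values were 20.38, 34.01 and 68.92, against 115.23, 180.44 and 98.60 in WT (limma adjusted p = 0.0471). Pcdha11 had the strongest fold change of the members in the authors' deposited table, -1.68, and the highest WT enrichment, 4.07. In both genes the first listed KO value was the lowest and the third the highest.

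Pcdha12 had regions before, at and far beyond its start. The region over its first 3 kb (37020801 to 37023300) had 40.76, 27.47 and 56.31 normalised reads in KO, against 95.73, 161.58 and 100.77 in WT (limma adjusted p = 0.0471). The one before it (37017201 to 37018500) lies upstream of the start, with 30.57, 6.98 and 18.49 in KO against 76.23, 50.85 and 39.15 in WT (limma adjusted p = 0.0567). The other 9 extended up to 37074400, into the stretch before Pcdhac1. Their means ran from 16.0 to 47.6 normalised reads in KO and from 40.5 to 147.9 in WT.

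Of those 9 gene body regions, 2 passed limma. The region from 37038101 to 37041300 had 33.12, 36.62 and 73.12 normalised reads in KO, against 171.95, 141.89 and 129.77 in WT (limma log2 fold change -1.70 ± 0.35, SE, adjusted p = 0.0471). The last region, from 37072801 to 37074400, had 15.28, 22.24 and 37.82 in KO, against 81.54, 63.15 and 57.27 in WT (limma adjusted p = 0.0480). The region from 37024901 to 37026500 had 0, 13.08 and 58.83 in KO, with 88.64, 67.25 and 58.0 in WT. This is the region where the groups overlapped: the first KO library had 0 reads and the third was as high as the lowest WT library. Its limma log2 fold change of -2.91 ± 1.24 (SE, adjusted p = 0.0786) was -1.29 without the first KO value, -4.25 without the third KO value and -2.07 with a pseudocount of 5.

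Per length, the KO and WT means of the member regions fell in ranges that did not overlap. They were 13.02 to 23.6 normalised reads per kb in KO and 36.9 to 54.7 in WT. All 23 regions were listed as lower in a table selected on these libraries, so this separation was partly set beforehand. Such ranges were not computed for other listed regions. Over the 23 regions the KO and WT values per kb had a Pearson correlation of 0.22 and a Spearman correlation of 0.12, as a description of regions that share the same 6 libraries. The authors' log2 fold change had a Pearson correlation of -0.35 with position along the cluster. The precision of single regions is limited by depth. The recovered reads per region were 0 to 32 in the first KO library, 16 to 174 in the second and 22 to 155 in the third, against 25 to 133, 51 to 339 and 44 to 310 in WT. Intervals for counting error are not given, since the values were scaled before deposit.

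Summed over the 23 regions, H3K9me3 was 40.4% of WT in KO. The sums were 728.56, 627.82 and 1083.34 normalised reads in KO, against 2102.44, 2211.20 and 1722.54 in WT. All 3 KO sums lay below all 3 WT sums. The KO mean was 813 ± 239 and the WT mean 2012 ± 257 (SD, n = 3). A two-sided exact permutation test gave p = 0.1, the smallest that 3 against 3 allows. The regions were selected on these same libraries and all were listed as lower, so this order was largely set beforehand. The sums over Pcdhb, Pcdhg and Pcdha7-g gave the same exact permutation p of 0.1, so the separation is not particular to the members. On the log2 scale the ratio of the means (KO over WT) was -1.31, and -0.49 under median-ratio scaling. The 11 regions within 3 kb of a start summed to 40.7% of WT in KO and the 12 gene body regions to 40.1%.

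The spread among the KO libraries was not even along the cluster. At the 10 regions of Pcdha1 to Pcdha7 the KO libraries, in listed order, held 36.2%, 25.4% and 38.4% of the KO sum. At the 13 regions of Pcdha9 to Pcdha12 they held 22.7%, 26.1% and 51.2%. The third KO library exceeded the first 1.06 times in the upstream set and 2.25 times in the downstream set, and was the highest KO value at 4 of the 10 and at 11 of the 13 regions. The division by position was made after the values were seen and was not tested. By region class the third KO library exceeded the first 1.13 times within 3 kb of a start and 1.98 times in gene bodies. It was the highest KO value at 5 of 11 and at 10 of 12 regions of these classes. The gene body regions lay mostly in the downstream set, so position and class cannot be told apart here. The WT shares ran from 29.8% to 38.4% upstream and from 27.4% to 37.6% downstream. A high last listed KO value was not particular to the members. The KO sums at Pcdhg, in listed order, were 955.25, 1087.34 and 2751.67 normalised reads. Those at Pcdhb were 1003.67, 564.61 and 1209.41, and those at Pcdha7-g were 1360.29, 888.98 and 1672.51. Over the 23 member regions the KO libraries, in the same order, held 286, 1440 and 1289 recovered reads.

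**Figure D2:**
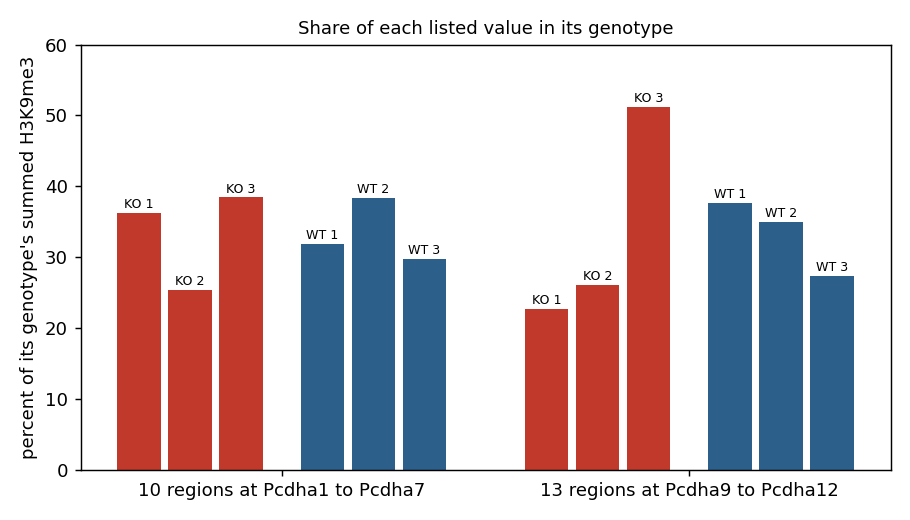
Share of each of the 3 listed values in the summed H3K9me3 of its genotype, in percent, with KO in red and WT in blue. The third KO value holds 38.4% at Pcdha1 to Pcdha7 and 51.2% at Pcdha9 to Pcdha12.

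The alpha members were then set against the other clustered protocadherins of chromosome 18, which had 59 listed regions under 26 symbols. All 59 were lower in the authors' deposited table, against 71.1% of all listed regions. Limma called 20 of the 59 lower, against 14.9% of all listed regions. The Pcdhg regions summed to 20.3% of WT in KO, the Pcdhb regions to 43.7% and the regions under Pcdha7-g, which RefSeq lists as Gm38667 with a span from Pcdha7 into the Pcdhg genes, to 42.5%. The log2 ratio of the alpha sum to the Pcdhg sum was -0.39, -0.79 and -1.34 in the KO libraries, against -1.50, -2.02 and -2.34 in WT. These groups did not overlap, and the difference was 1.11 on the log2 scale (exact permutation p = 0.1, two-sided, adjusted p = 0.4 over 4 such comparisons). The ratio to Pcdhb was -0.16 ± 0.31 in the KO libraries, against -0.07 ± 0.18 in the WT libraries (SD, n = 3, exact permutation p = 0.8), with overlapping groups. The ratio to Pcdha7-g differed by -0.06 (exact permutation p = 0.7), and the ratio to all 59 regions by 0.50 (exact permutation p = 0.2). No difference between alpha and the other groups can be called with 3 libraries a genotype.

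**Figure D3:**
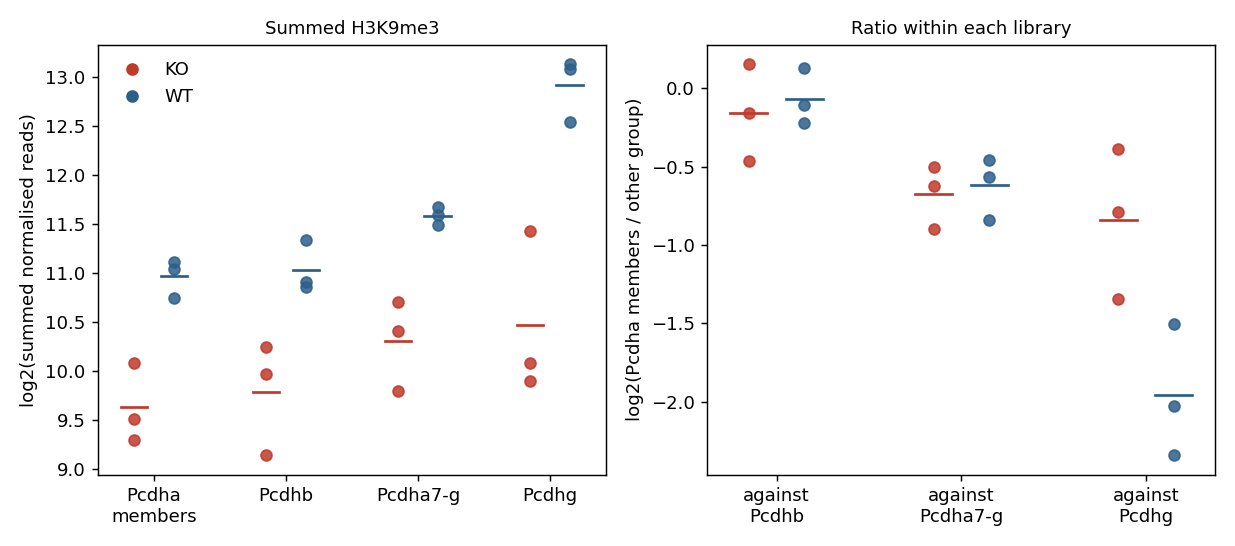
Left, summed normalised H3K9me3 reads on a log2 scale at the Pcdha members and at 3 other groups of clustered protocadherin regions. Right, log2 ratio of the sum at the Pcdha members to that at each other group, per library. Points are the 3 libraries of a genotype, bars their mean, KO in red left of WT in blue; the ratio to Pcdhg lies between -1.34 and -0.39 in KO and between -2.34 and -1.50 in WT.

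Within the other groups, the regions with the smallest limma p include Pcdhb18 (37490101 to 37492400), with a mean of 42.6 normalised reads in KO and 120.9 in WT, and Pcdhb20, with 93.1 in KO and 235.7 in WT. At Pcdhg they were Pcdhga10, with 312 in KO and 1956 in WT, and Pcdhgb5, with 117 in KO and 748 in WT. The single region at Pcdhac1 (37129201 to 37130700), a C-type alpha gene outside the member list, had 5.09, 24.42 and 37.82 normalised reads in KO, against 67.36, 59.87 and 49.30 in WT (limma adjusted p = 0.0655).

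Among 19 genes that act on the clusters or with SETDB1, 3 had listed regions and 16 had none. The 15 regions were all lower in the authors' deposited table, against 71.1% of all listed regions. Their median log2 fold change was -1.80, against -0.94 over all listed regions. Limma called 6 of the 15 lower and 0 higher, against 14.9% of all regions lower. For each gene the region with the smallest limma p is given, which is 1 of 9 for Atf7ip, 1 of 3 for Smchd1 and 1 of 3 for Stag1. Atf7ip, a partner protein of SETDB1 (136524201 to 136525800 on chromosome 6), had a mean of 17.8 in KO, against 78.4 in WT. Smchd1, a chromatin protein of X inactivation that also acts on protocadherin clusters, had 20.6 in KO and 99.0 in WT. Stag1, a cohesin subunit, had 45.2 in KO and 157.2 in WT. These 3 regions passed limma (adjusted p = 0.0471). Ctcf and Setdb1 itself were among the 16 with no listed region, so the table does not check the genotype labels at the deleted gene.

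Of 12 protocadherins outside the clusters, Pcdh7, Pcdh8, Pcdh9, Pcdh11x and Pcdh15 had 22 listed regions. All 22 were lower in the authors' deposited table, against 71.1% of all listed regions, with a median log2 fold change of -1.07. Over all listed regions that median was -0.94. Limma called 4 of the 22 lower and 0 higher, a share near the 14.9% of all regions. The region of Pcdh9 with the smallest p had a mean of 25.7 in KO, against 95.2 in WT (limma adjusted p = 0.0471), and that of Pcdh15 had 20.5 in KO, against 57.0 in WT (limma adjusted p = 0.0499). Those of Pcdh7, Pcdh8 and Pcdh11x had limma adjusted p-values of 0.0823, 0.0993 and 0.0602. Pcdh11x lies on chromosome X, and for H3K9me3 the sexes differ between the genotypes. The part of sex at that gene was not tested.

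The regions whose 6 values followed the mean profile of the members most closely lay in Dlg1, G630093K05Rik, Mon2, Cep112 and Myh15, with Pearson correlations of 0.999 over 6 values on the log2 scale. They are the top 5 of 12436 gene-annotated candidate regions, and the profile is mostly the step between KO and WT. The Dlg1 region had 10.19, 10.03 and 28.58 normalised reads in KO, against 106.36, 98.42 and 65.97 in WT.

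H3K27ac, a mark of active promoters and enhancers, had no called peak over the member regions in either genotype. Between 36930701 and 37074400 the number of peaks was 0 in all 3 KO and in all 3 WT libraries. By the same lists 0 of the 23 H3K9me3 regions was overlapped by a peak in any library. The share of all listed H3K9me3 regions overlapped by a peak is not given here, so whether 0 of 23 is usual cannot be judged. The last peak upstream ended between 36783084 and 36802080, and the peak-free stretch around the members was 341 to 395 kb long in KO and 342 to 384 kb in WT. Windows of the interval's own length, 143.7 kb, often held no peak in any of the 6 libraries. This was so for 36.8% of 18955 windows across the genome and for 29% of 631 on chromosome 18. How common the longer peak-free stretch is was not computed. Peak lists hold only signal above the caller's threshold, so low acetylation at single variable promoters was not detectable here.

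The nearest H3K27ac peaks lay downstream of the member regions, where the annotated spans of all members overlap. At the start of Pcdhac2 (37143678) a peak was called in 2 of 3 KO libraries and in 2 of 3 WT libraries, between 37142338 and 37144261. A further site between 37177782 and 37179238, also inside the overlapping spans, had a peak in all 3 KO and all 3 WT libraries. The highest fold enrichment there, the authors' own value per peak, was 4.69, 6.21 and 6.12 in KO and 5.31, 4.55 and 5.26 in WT. Over the full spans of the member genes the libraries had 3, 4 and 1 peaks in KO and 2, 5 and 1 in WT. The KO mean was 2.67 ± 1.53 and the WT mean 2.67 ± 2.08 (SD, n = 3), and a two-sided exact permutation test gave p = 1. The groups overlapped. The third library of each genotype, which has the shortest list, had a peak only at the site common to all libraries.

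**Figure D4:**
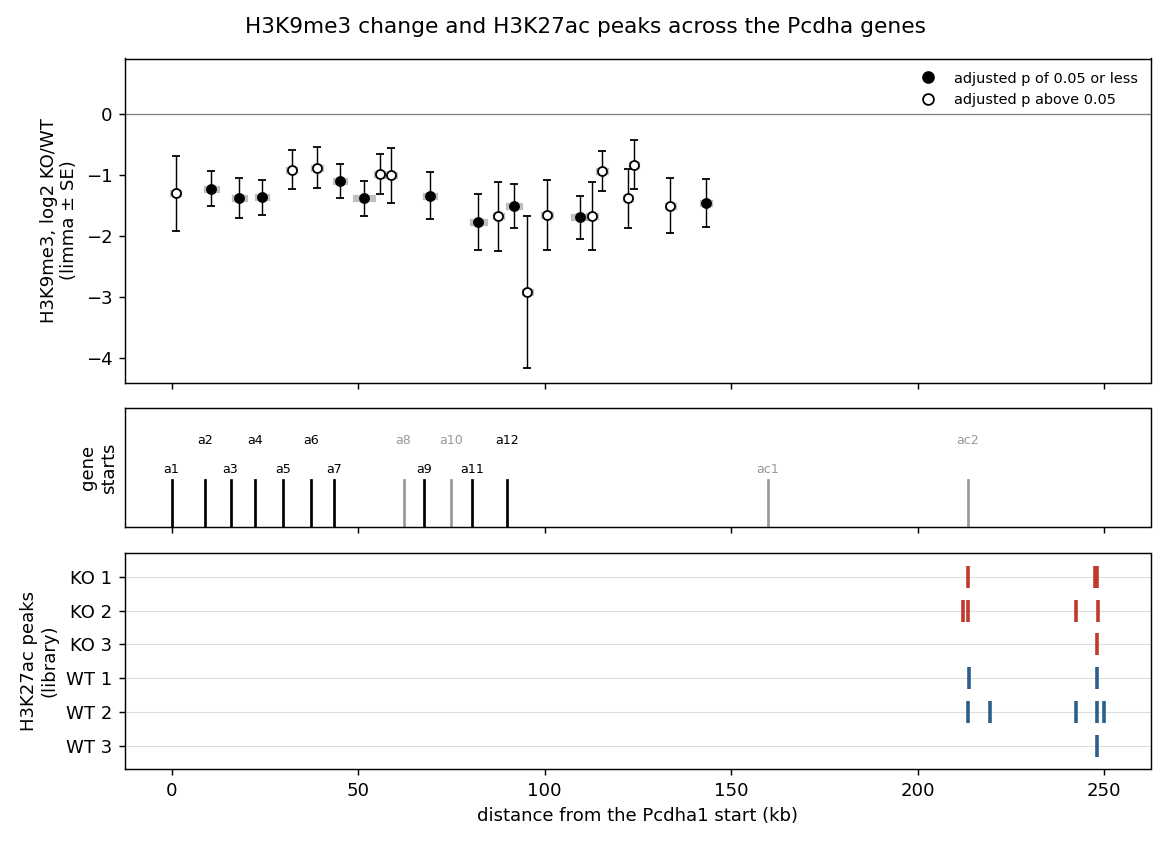
Top, limma log2 fold change of H3K9me3 (KO over WT) with its SE at the 23 member regions, filled where the adjusted p is 0.05 or less; grey bars give region widths. Middle, starts of the alpha genes, members in black. Bottom, centres of H3K27ac peaks in the 3 KO and 3 WT libraries; 0 peaks lie over the H3K9me3 regions, and every library has one near 248 kb.

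At the other clustered protocadherins H3K27ac peaks overlapped H3K9me3 regions of the Pcdhg group only. There 7, 7 and 4 of 13 regions had a peak in the KO libraries, against 2, 2 and 1 in the WT libraries (exact permutation p = 0.1 for the count over all 59 regions, the smallest possible). At the alpha members, Pcdhb and Pcdha7-g the count was 0 in each of the 6 libraries. The Pcdhg regions cover 117.1 kb, against 45.2 kb at the alpha members, 44 kb at Pcdhb and 58.4 kb at Pcdha7-g. These counts therefore compare regions of unlike length, and the share of all listed regions with such an overlap is not given here.

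The labelled cell type was checked by H3K27ac peaks within 1 kb of marker gene ends. All 6 neural progenitor markers had one in at least 1 library, and Fabp7 had one in all 6 libraries. The counts over that list were 4, 4 and 2 of 6 in KO and 5, 4 and 1 in WT. The ganglionic eminence markers Dlx1, Dlx2, Dlx5, Gsx2 and Nkx2-1 had 0 in every library. Markers of microglia and blood, of endothelium and of neurons also had 0, and of 3 mesenchyme markers Col1a1 had a peak in 1 KO and 1 WT library. The short lists of the third libraries go with their low counts.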

How the data were processed

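The libraries came from native ChIP-seq of separate animals, per the labels. The submitters' processing notes name mm10, Bowtie2 2.3.4.3 and, with no version, MACS2. The deposited H3K9me3 table gives, per the file headers, regions from windows of 1000 bp with 3 normalised values per genotype in 1 cell, the authors' mean signal, an enrichment ratio, log2 fold changes, p-values and adjusted p-values. The authors deposited 1 H3K27ac peak list per library, whose peaks carry a score, fold enrichment, and p and q on a −log10 scale.

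Members, lists and tests were chosen with earlier results of these data known. limma 3.58.1 (R 4.3.3) with a mean-variance trend was run on log2(value + 1) over all 50654 regions, a pseudocount of 1, and adjusted over all of them. That set was selected on the same libraries, so the adjusted p-values are not independent of the choice. Low values at each listed position were whole multiples of a single step (all within a tolerance of 0.1 reads), which gave recovered reads for limma-voom. For H3K27ac the sequencing depth is unknown, and the lists had 11446 to 42651 peaks in KO and 12446 to 37289 in WT. Single values were compared with exact permutation tests. By rule, all members were named, every regulator and outside protocadherin with a listed region was named by its region with the smallest limma p, and up to 2 regions per other subcluster were named. A gene's start and end come from the table or from RefSeq (GRCm38.p6). The alternatives varied the pseudocount, a filter on low values, scaling, trend, tool, thresholds, interval, overlap and left-out libraries. One gene of the marker lists is not reported here.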

Additional observations from a re-analysis of the deposited data

How the results depend on the processing

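The number of member regions that limma called lower in KO moved with the setting, as did the share of all listed regions called lower. It was 10 as reported (14.9% of all), 9 with a pseudocount of 0.5 (12.1%), 16 with a pseudocount of 5 (33.3%), 10 with a filter on a mean of 20 (15%) and 2 under median-ratio scaling (5.97%). It was 0 without a mean-variance trend (0% of all) and 22 with limma-voom on recovered reads (58%). Without a trend 20 members had an unadjusted limma p of 0.05 or less, against 58.5% of all regions. With 1 listed value left out the number of members called lower ranged from 0 to 22 (0% to 61.1%). At an unadjusted limma p of 0.05 the member count was then 13 to 23, against 32% to 72.6% of all regions. The cause was not tested. The direction held in all 276 refits of single member regions (23 regions under 12 alternatives), from -4.25 to -0.03. These refits reuse the same values of regions selected on these libraries, so the sign was largely set beforehand. Under median-ratio scaling 31024 of all 50654 listed regions also lay below 0. The authors' call fell to 22 of 23 at an adjusted p of 1e-05. The share of all listed regions at that threshold was not computed, so this count cannot be set against it. The summed log2 ratio of -1.31 ranged from -1.57 to -1.15 with a value left out and was -0.49 under median-ratio scaling. The log2 ratio of members to the other clusters differed by 0.36 to 0.67 with a value left out. The H3K27ac count in the interval was 0 in KO and 0 in WT under every threshold, list length, overlap rule and left-out library tried, and permuting within the first title number gave p = 1 (exact permutation). The edgeR alternative was not run, since the values are scaled and joined in 1 cell. No paired analysis was possible because the listed H3K9me3 values are not tied to animals. For H3K27ac the shared title numbers entered only the permutation above, where every count was 0. Depth limits the first KO library most, with 0 to 32 recovered reads per region.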
